A study of Mus musculus with 24 samples.

Results

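Cirbp and Rbm3 encode the 2 cold-inducible RNA-binding proteins of the mouse, and both genes were selected by name, whatever their values, from the 51826 gene identifiers counted in 24 libraries of dorsal hippocampus. The labels give all mice as male C57BL/6j animals aged 2 to 4 months, whereas the general methods of the study name both sexes. RNA-Seq 1 compared wildtype (WT) homecage mice (n = 3), WT mice trained in the Morris water maze (MWM, n = 3) and MWM-trained CBP KIX/KIX mice (n = 3) in ribosomal-RNA-depleted total RNA. RNA-Seq 2 compared WT homecage mice (n = 3), WT mice after contextual fear conditioning (CFC, n = 4), CBP KIX/KIX homecage mice (n = 4) and CBP KIX/KIX mice after CFC (n = 4) in polyA-selected RNA prepared at another site. CBP KIX/KIX mice carry point mutations in the KIX domain of the coactivator CBP, the surface that binds phosphorylated CREB and c-Myb, in every cell of the body, and their WT controls were littermates. In the MWM a mouse swims to a hidden platform over several days of training. In CFC a mouse receives a single foot-shock in a new chamber after days of handling, and the homecage mice of RNA-Seq 2 were handled without shock. Tissue of trained mice was taken 1 h after training. RNA-Seq 1 held no CBP KIX/KIX homecage group. Task, library type and site changed together between the experiments and cannot be told apart, and the water temperature and the body temperature of the mice were not given in the sources used here.

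Cirbp and Rbm3 are small proteins with an RNA recognition motif followed by a glycine-rich tail. Mild cooling of mammalian cells raises both, heat lowers them, and the daily body temperature rhythm drives their daily oscillation. CIRBP binds transcripts of the circadian clock, including that of Clock, and RBM3 is known for supporting protein synthesis and the rebuilding of synapses after cooling or torpor-like states in the hippocampus. The MWM places mice in water while CFC does not, so the comparison of each task with its own homecage group addresses whether the transcripts of these temperature-responsive genes moved after swimming.

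Cirbp (ENSMUSG00000045193.13) lies on the forward strand of chromosome 10 at chr10:80165985-80172786 of GRCm38, with 7 annotated transcripts and 2604 exonic bases. Rbm3 (ENSMUSG00000031167.16) lies on the reverse strand of the X chromosome at chrX:8138975-8145880, with 11 annotated transcripts and 4698 exonic bases. The longest coding sequences were 516 bases for Cirbp and 462 bases for Rbm3. The stretch of both coding sequences from base 166 to base 255, within which the exact runs shared by the paralogs are longest, shows how far reads of the 2 genes can be told apart. Capitals mark the bases that are identical at the same position, 63 of 90 (70.0%).
Cirbp: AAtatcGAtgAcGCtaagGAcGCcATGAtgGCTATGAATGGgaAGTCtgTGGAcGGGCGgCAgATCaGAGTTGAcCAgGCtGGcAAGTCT
Rbm3: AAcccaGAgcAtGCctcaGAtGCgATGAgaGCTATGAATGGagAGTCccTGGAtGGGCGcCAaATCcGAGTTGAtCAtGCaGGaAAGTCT
The longest run that any Cirbp transcript shared exactly with any Rbm3 transcript was 11 bases, far shorter than a read. A processed pseudogene of Rbm3 on chromosome 1 (Rbm3-ps) shared an exact run of 197 bases with Rbm3. Rbm3-ps held 38 to 94 counts in RNA-Seq 1 and 7 to 18 counts in RNA-Seq 2, against 1372 to 2787 and 928 to 3453 counts of Rbm3. The antisense gene Rbm3os overlapped the 5′ end of Rbm3 by 452 bases, 94 of them exonic in both genes, and held 20 to 38 and 4 to 29 counts. The counting strand was not given in the sources used here, so reads from the shared exonic bases of Rbm3 and Rbm3os cannot be assigned. Another gene, 1600002K03Rik, starts 158 bases after the end of Cirbp on the same strand and held 47 to 152 counts across the libraries.

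The first of 2 Cirbp promoters that RefSeq lists (GRCm38.p6, forward strand, chr10:80167589-80167888, a 300-base window across the start site) is shown because it carries the letters of the element through which mild cold is known to act on Cirbp. Capitals mark that element, TCCCCGCC, and 3 matches to GGGCGG, the core of the Sp1 site, on either strand.
Cirbp promoter: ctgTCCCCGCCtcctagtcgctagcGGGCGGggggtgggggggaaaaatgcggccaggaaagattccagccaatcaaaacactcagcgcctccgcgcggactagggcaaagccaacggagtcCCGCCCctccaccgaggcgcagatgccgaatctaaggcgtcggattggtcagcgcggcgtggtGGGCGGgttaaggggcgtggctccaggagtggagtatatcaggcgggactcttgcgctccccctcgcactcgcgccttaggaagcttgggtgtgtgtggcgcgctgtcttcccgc
The TCCCCGCC match lay at position -247 from the start site, and 5.38% of 32851 mouse promoters of the same length held these letters on either strand. The GGGCGG matches lay at positions -225, -128 and -65, and 35.7% of all promoters held at least 1 such match. This promoter was 65.7% G and C with 29 CpG dinucleotides, against medians of 52.7% and 7 over all promoters. The letters of the E-box bound by CLOCK, CACGTG, were not in this window and were in 7.15% of promoters. The letters of the full CREB site, TGACGTCA, were not in this window and were in 1.79% of promoters. A match of letters describes the sequence and does not show binding.

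Both genes were well expressed in every library. Summed counts per library ran from 38174044 to 65709282 in RNA-Seq 1 and from 15385836 to 46056290 in RNA-Seq 2, where replicates 3 and 4 of each group were shallower (15385836 to 20568337) than replicates 1 and 2 (30143949 to 46056290). Levels are given as CPM (counts scaled to a common library size) with upper-quartile normalization, and relative to exonic length only where genes are compared. Per kilobase of exon, the mean level of Cirbp was 25.4 CPM in RNA-Seq 1 and 26.8 CPM in RNA-Seq 2, whereas that of Rbm3 was 7.93 and 15.7 CPM. The level of Cirbp thus differed little between total and polyA RNA while that of Rbm3 was about 2-fold higher in polyA RNA, a difference between experiments in which library type, site and mice cannot be told apart. The neuron markers Snap25, Rbfox3, Slc17a7, Syt1, Gad1, Gad2, Prox1 and Wfs1 were all detected in every group, as were the 6 astrocyte and 6 oligodendrocyte markers examined. Prox1, a marker of dentate granule cells, measured 77.5 to 83.2 CPM in WT homecage mice of RNA-Seq 1. It was lower in every WT MWM library, down to 53.7 CPM (log2 fold change -0.41, SE 0.12, adjusted p = 0.30, edgeR). Of all 22276 genes, 9.71% were lower without overlap in this comparison. CBP KIX/KIX MWM libraries, at 63.7 to 84.4 CPM of Prox1, overlapped the homecage range. Of the 8 neuron markers, 5 had a log2 fold change below 0 after MWM in WT mice and 3 above 0. Summed choroid plexus markers, among them the transthyretin gene Ttr, ranged from 35.7 to 1898 CPM within the WT homecage group of RNA-Seq 2 and from 43.7 to 4692 CPM within its WT CFC group. In RNA-Seq 1 they ranged from 121 to 1506 CPM in WT homecage, from 166 to 1475 CPM in WT MWM and from 183 to 2439 CPM in CBP KIX/KIX MWM libraries. One CBP KIX/KIX homecage library of RNA-Seq 2, replicate 3, stood apart in the immediate-early gene Fos, at 117 CPM against 1.8 to 4.8 CPM in the other 3.

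Cirbp after the water task was lower on average than in homecage mice, without passing the test. In WT homecage mice of RNA-Seq 1, Cirbp measured 76.9, 76.3 and 66.3 CPM. After the MWM it measured 67.1, 62.1 and 60.6 CPM in WT mice and 63.8, 55.6 and 65.5 CPM in CBP KIX/KIX mice. A single pair overlapped between the WT groups, since the lowest homecage library lay just under the highest MWM library. The group means were 73.2 ± 5.96 (SD, n = 3), 63.2 ± 3.40 (n = 3) and 61.6 ± 5.28 CPM (n = 3). In WT mice the log2 fold change of Cirbp after MWM was -0.21 (SE 0.10, 95% confidence interval -0.42 to -0.0043, unadjusted p = 0.046 and adjusted p = 0.45 in edgeR's quasi-likelihood test with Benjamini-Hochberg adjustment). At an unadjusted p under 0.05 the same comparison held 2418 of 22276 genes, and at an adjusted p under 0.05 it held 3 genes, or 0.0135%. A 2-sided exact permutation test on the 6 WT libraries gave p = 0.2, where the smallest value it allows is 0.1. Between libraries of the same number, Cirbp was lower after MWM in 3 of 3 and Rbm3 higher in 3 of 3, the latter by as little as 33.3 to 33.6 CPM (replicate 3). The share of all genes with 1 direction in 3 of 3 is not given here, so this cannot be read as particular to these genes. With the numbers as a block the adjusted p was 0.48 for Cirbp and 0.68 for Rbm3 (edgeR).

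The call for Cirbp depended on a single homecage library. Without WT homecage replicate 3 the log2 fold change of Cirbp after MWM was -0.28 with an adjusted p of 0.0497 (edgeR). Over all 15 alternatives the adjusted p ran from 0.0497 to 0.78. How many of all genes passed without that library is not given here, so the call cannot be read as particular to Cirbp. That library stood apart from the other homecage libraries of RNA-Seq 1 in its choroid plexus marker sum, at 1506 CPM against 121 and 133 CPM, and in its base composition. A GC tilt was computed for each library as the median centred log2 CPM of the 1084 genes richest in G and C minus that of the 1084 poorest, after removing each gene's mean in the experiment. The tilt was 0.57 and 0.52 in homecage replicates 1 and 2 and -0.26 in replicate 3, and it lay between -0.43 and 0.07 in the 6 MWM libraries. Over the 9 libraries of RNA-Seq 1 the tilt and Cirbp had a Pearson r of 0.90, given as a description because the points share libraries and base composition. After full-quantile normalization for GC content the log2 fold change of Cirbp after MWM was -0.14 (adjusted p = 0.40).

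Rbm3 was not lower after the water task. In WT homecage mice of RNA-Seq 1 it measured 34.5, 37.0 and 33.3 CPM. After MWM it measured 36.4, 43.0 and 33.6 CPM in WT mice and 40.1, 39.9 and 37.7 CPM in CBP KIX/KIX mice. The WT groups overlapped, and the highest level was that of WT MWM replicate 2. The means were 34.9 ± 1.87, 37.6 ± 4.81 and 39.2 ± 1.31 CPM (SD, n = 3 each). The log2 fold change of Rbm3 in WT mice after MWM was 0.11 (SE 0.10, 95% confidence interval -0.10 to 0.32, adjusted p = 0.68, edgeR), and the exact permutation p was 0.6. With GC normalization this value was -0.0023, so even its sign depended on the treatment of base composition.

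**Figure D1:**
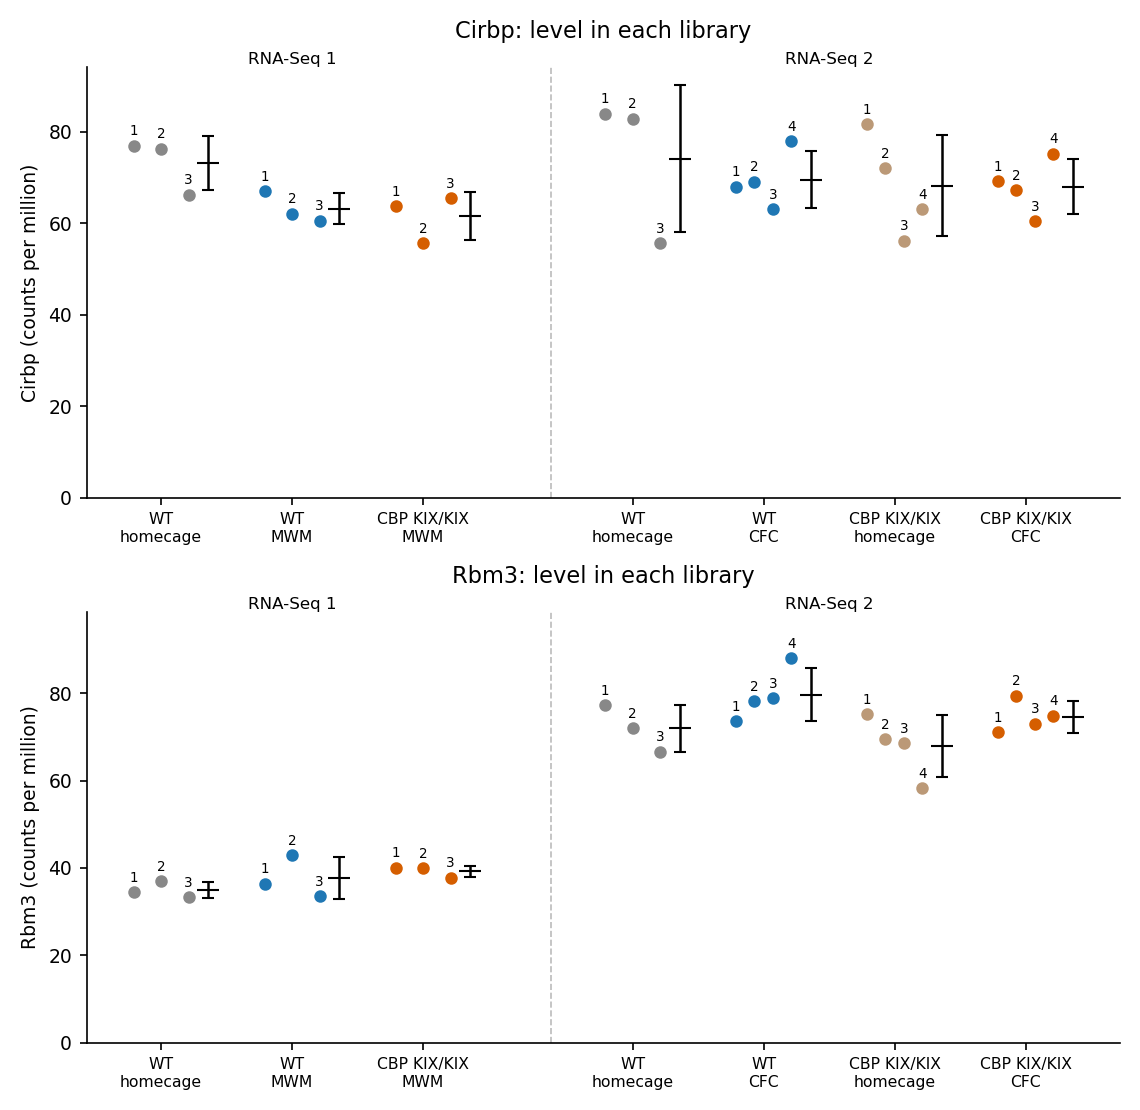
Level of Cirbp (top) and Rbm3 (bottom) in every library, in CPM on an axis from 0. Points are libraries with their replicate number, and bars beside them give the group mean ± SD (n = 3 or 4). Cirbp lies between 55.6 and 84.0 CPM in both experiments, whereas Rbm3 lies between 33.3 and 43.0 CPM in RNA-Seq 1 and between 58.3 and 87.9 CPM in RNA-Seq 2.

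After fear conditioning, Cirbp overlapped its homecage level and Rbm3 was higher on average, again without passing the test. In WT homecage mice of RNA-Seq 2, Cirbp measured 84.0, 82.9 and 55.6 CPM, and after CFC it measured 68.0, 69.1, 63.1 and 78.0 CPM. All 4 CFC libraries lay inside the range of the homecage libraries. The log2 fold change of Cirbp was -0.10 (SE 0.14, 95% confidence interval -0.39 to 0.19, adjusted p = 1.0, edgeR). It was -0.27 without homecage replicate 3 (adjusted p = 1.0) and -0.0049 without homecage replicate 1 (adjusted p = 1.0). Rbm3 measured 77.2, 71.9 and 66.6 CPM in WT homecage mice and 73.5, 78.1, 78.8 and 87.9 CPM after CFC. The 4 trained libraries all lay above the homecage mean of 71.9 ± 5.31 CPM (SD, n = 3), with a mean of 79.6 ± 6.03 CPM (n = 4), and 1 homecage library lay above the lowest trained library. The log2 fold change of Rbm3 was 0.14 (SE 0.08, 95% confidence interval -0.03 to 0.31, unadjusted p = 0.093, adjusted p = 1.0, edgeR), with an exact permutation p of 0.114. No gene passed in this comparison (0.0% of 18851 tested) in the fit of all RNA-Seq 2 groups, by edgeR or by DESeq2, and 450 genes had an unadjusted p under 0.05 in edgeR. With only the 2 groups fitted, edgeR called 21 of 18115 genes, all higher after CFC, and neither Cirbp nor Rbm3 was among them.

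The difference between the responses to the 2 tasks was small for both genes and its intervals were wide. The MWM response minus the CFC response was -0.11 on the log2 scale for Cirbp (SE 0.17, 95% confidence interval -0.48 to 0.26, adjusted p = 0.89, edgeR). For Rbm3 it was -0.04 (SE 0.13, 95% confidence interval -0.31 to 0.24, adjusted p = 0.96, edgeR). Without WT homecage replicate 3 of RNA-Seq 2 the difference for Cirbp was 0.05 (adjusted p = 0.96). For Rbm3 the value turned positive with TMM normalization (0.0069). It also turned positive without RNA-Seq 1 WT homecage replicate 2 (0.0085), without WT MWM replicate 3 (0.04), without RNA-Seq 2 WT homecage replicate 3 (0.01) or without WT CFC replicate 4 (0.02). Of 22038 genes, 3 passed this test (0.0136%). For scale, Fos, an immediate-early transcription factor gene, was among the 3, with an MWM response that was smaller than its CFC response (difference -1.66 on the log2 scale, SE 0.22, adjusted p = 0.032, edgeR).

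**Figure D2:**
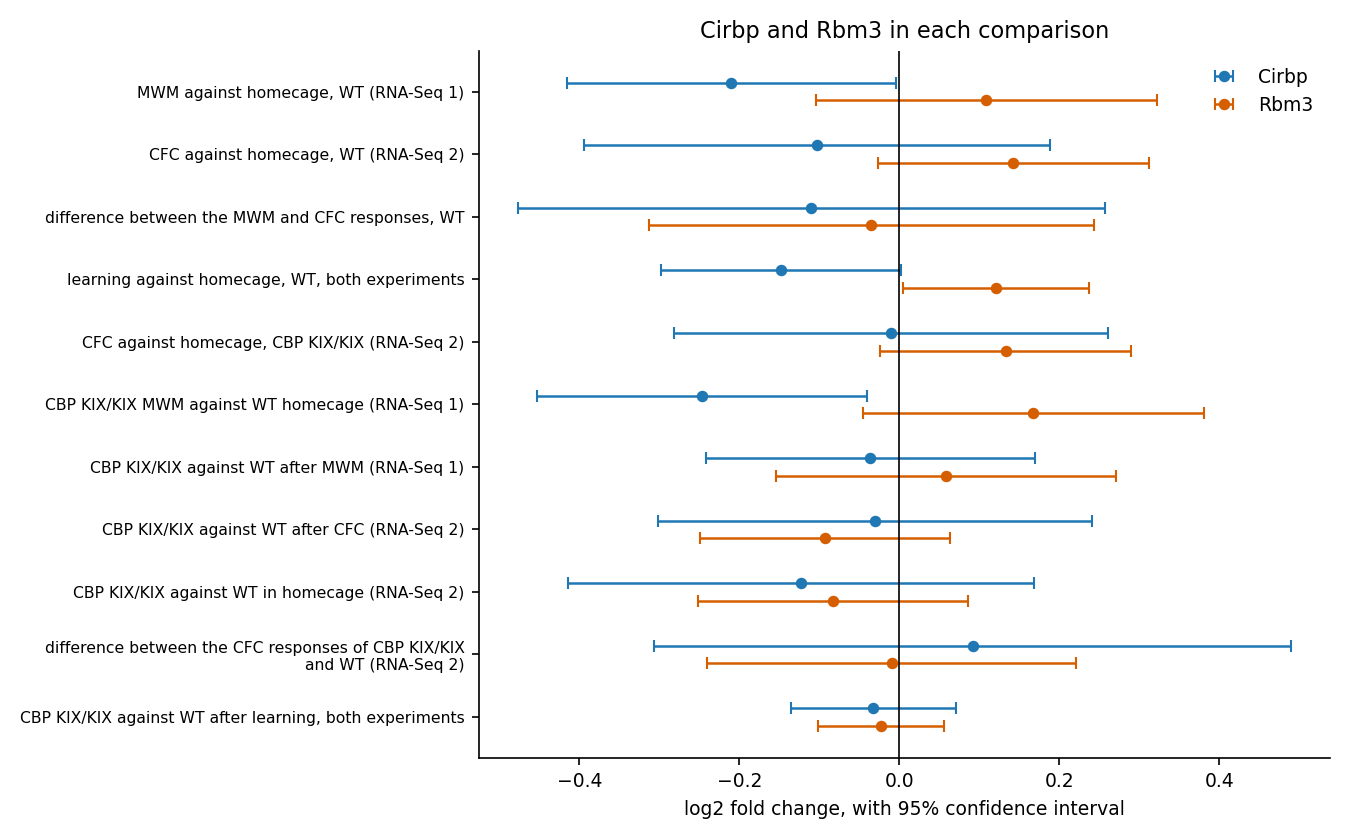
Log2 fold change of Cirbp (blue) and Rbm3 (orange) in the 11 comparisons, with 95% confidence intervals from edgeR. The interval of Cirbp lies below 0 in the comparisons of MWM-trained WT and CBP KIX/KIX mice with WT homecage mice, and that of Rbm3 lies above 0 in the joint learning comparison, but none of these passed adjustment over all genes.

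Over both tasks jointly, the estimates for the 2 genes had opposite signs and neither passed. The joint comparison of trained with homecage WT mice used the 13 WT libraries, the experiment as a batch term and 3 factors of unwanted variation. Cirbp had a log2 fold change of -0.15 (SE 0.07, 95% confidence interval -0.30 to 0.0017, unadjusted p = 0.052, adjusted p = 0.31, edgeR). Rbm3 had a log2 fold change of 0.12 (SE 0.05, 95% confidence interval 0.0040 to 0.24, unadjusted p = 0.044, adjusted p = 0.28, edgeR). In this comparison 154 of 22038 genes passed (0.699%) and 3676 had an unadjusted p under 0.05. Without WT homecage replicate 3 of RNA-Seq 2, in which Cirbp was lowest, the value for Cirbp was -0.23 with an adjusted p of 0.033 (edgeR). Over 21 alternatives the adjusted p ran from 0.033 to 0.76. The number of all genes that passed without that library is not given here. All 12 immediate-early genes examined passed upward in the joint comparison of all 13 WT libraries with 3 factors. Calls depended on these factors. With 1 factor 19 genes passed as higher and 5 as lower. Without factors 9 genes passed in all, so not all 12 of these calls held there. Arc, a synaptic plasticity gene, had a log2 fold change of 1.28 (SE 0.09). The joint comparison shares its libraries with the separate comparisons of each task and is no independent evidence.

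Within single libraries, the ratio of Rbm3 to Cirbp counts does not depend on the library-size factor. In RNA-Seq 1 it was 0.448, 0.485 and 0.503 in WT homecage mice, 0.543, 0.692 and 0.554 in WT mice after MWM, and 0.628, 0.717 and 0.576 in CBP KIX/KIX mice after MWM. As counted, all 6 water-task libraries lay above all 3 homecage libraries. After GC normalization, which was added once this was seen, they overlapped, with a ratio of 0.848 to 1.16 in WT homecage, 0.988 to 1.30 in WT MWM and 0.982 to 1.11 in CBP KIX/KIX MWM libraries. The difference from homecage in mean log2 ratio was 0.31 as counted and 0.14 after GC normalization for WT mice, and 0.42 and 0.04 for CBP KIX/KIX mice. As counted, the means were 0.479 ± 0.0278, 0.596 ± 0.0831 and 0.640 ± 0.0713 (SD, n = 3 each). In RNA-Seq 2 the ratio was 0.919, 0.868 and 1.2 in WT homecage mice and 1.08, 1.13, 1.25 and 1.13 in WT mice after CFC. In CBP KIX/KIX mice it was 0.920, 0.965, 1.22 and 0.924 in the homecage and 1.03, 1.18, 1.21 and 0.995 after CFC. The groups of RNA-Seq 2 overlapped, with replicate 3 highest in each of the 4 groups. Since Cirbp is 53.7% and Rbm3 41.5% G and C in their longest annotated transcripts, the ratio is not free of the GC tilt. The ratio was examined after the values of both genes were known and carries no test. How many other pairs of genes separate in RNA-Seq 1 as this ratio did is not given here. Of single genes, 13.4% did not overlap between WT MWM and WT homecage libraries, and 25.3% between CBP KIX/KIX MWM and WT homecage libraries. The separation as counted cannot be read as particular to Cirbp and Rbm3.

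**Figure D3:**
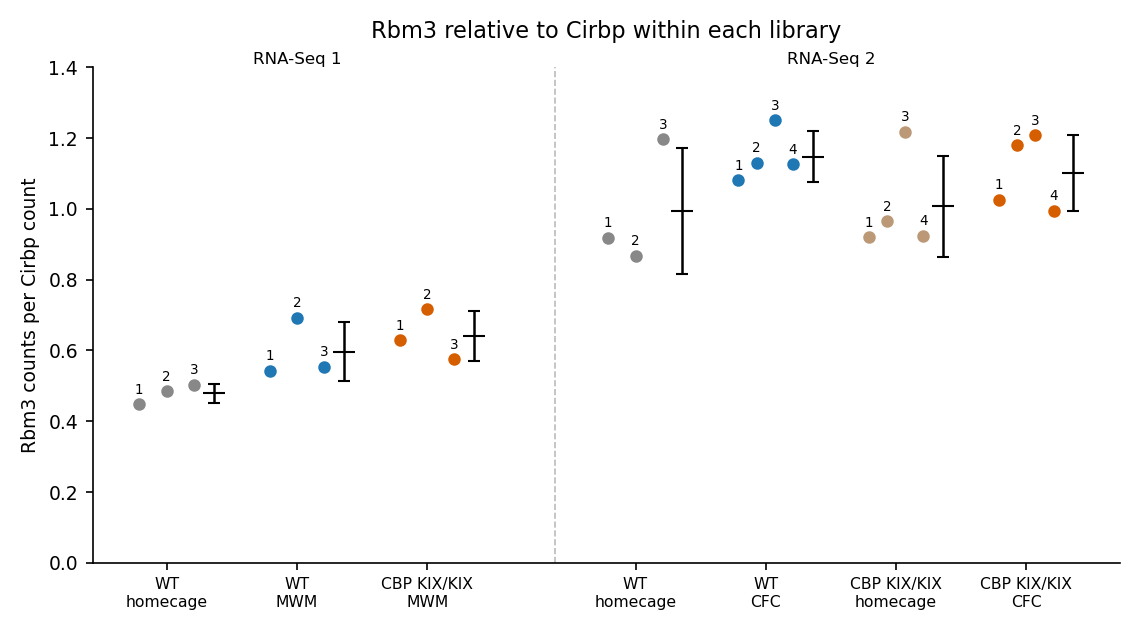
Rbm3 counts per Cirbp count in every library, on an axis from 0, with replicate numbers and the group mean ± SD beside the points. The 6 MWM libraries of RNA-Seq 1 (0.543 to 0.717) lie above the 3 homecage libraries (0.448 to 0.503), while trained and homecage libraries of RNA-Seq 2 overlap. After GC normalization, not drawn, the groups of RNA-Seq 1 overlap as well. The share of other gene pairs that separate as counted is not given.

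Neither gene passed the test of genotype, whether after MWM, after CFC or in the homecage. After MWM, CBP KIX/KIX mice differed from WT mice by a log2 fold change of -0.04 for Cirbp (SE 0.10, adjusted p = 0.93, edgeR) and 0.06 for Rbm3 (SE 0.10, adjusted p = 0.89, edgeR). No gene passed in that comparison (0.0%), with 1286 genes at an unadjusted p under 0.05 and 7 genes called by DESeq2. After CFC, Cirbp measured 69.2, 67.3, 60.4 and 75.2 CPM in CBP KIX/KIX mice, a log2 fold change of -0.03 against WT mice (SE 0.13, adjusted p = 1.0, edgeR). Rbm3 measured 71.0, 79.4, 73.0 and 74.8 CPM, and all 4 libraries lay below the WT mean (log2 fold change -0.09, SE 0.07, 95% confidence interval -0.25 to 0.06, adjusted p = 1.0, edgeR). Of all genes 2 passed there, or 0.0106%. In the homecage, Cirbp measured 81.7, 72.0, 56.2 and 63.1 CPM and Rbm3 75.2, 69.4, 68.5 and 58.3 CPM in CBP KIX/KIX mice. The genotype difference in the homecage was -0.12 for Cirbp (SE 0.14, adjusted p = 0.84, edgeR) and -0.08 for Rbm3 (SE 0.08, adjusted p = 0.80, edgeR), where 5 genes passed (0.0265%). For Cirbp it was -0.28 without WT replicate 3 and -0.024 without WT replicate 1. For Rbm3 it was -0.13 without CBP KIX/KIX replicate 1 and -0.016 without CBP KIX/KIX replicate 4. Jointly after both tasks, the difference was -0.03 for Cirbp (95% confidence interval -0.14 to 0.07) and -0.02 for Rbm3 (-0.10 to 0.06), while 518 of 21489 genes passed (2.41%).

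Rbm3 after CFC did not pass in CBP KIX/KIX mice either. In CBP KIX/KIX mice, Rbm3 was 0.13 higher on the log2 scale after CFC than in the homecage (SE 0.07, 95% confidence interval -0.02 to 0.29, unadjusted p = 0.092, adjusted p = 0.47, edgeR), beside 0.14 in WT mice. The 4 trained libraries all lay above the homecage mean, and the exact permutation p was 0.143. Without CBP KIX/KIX homecage replicate 4, the library lowest in Rbm3 (58.3 CPM) and in Ddit4 (28.8 CPM against 39.4 to 40.6 CPM), the value was 0.066, and in WT mice it was 0.089 without homecage replicate 3. Cirbp differed by -0.01 (SE 0.13, adjusted p = 0.99, edgeR). No gene passed (0.0%) in edgeR, DESeq2 called 301 genes, and 2457 genes had an unadjusted p under 0.05. The genotype difference of the CFC response was -0.01 for Rbm3 (95% confidence interval -0.24 to 0.22) and 0.09 for Cirbp (-0.31 to 0.49), intervals wider than the responses themselves. No gene passed that test either (0.0% in edgeR, 1 gene in DESeq2, and 903 genes at an unadjusted p under 0.05).

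MWM-trained CBP KIX/KIX mice and WT homecage mice differed in genotype and training at once, and the comparison shares its homecage libraries with that of WT mice after MWM. Here neither gene overlapped between the groups. Cirbp was lower in all 3 mutant libraries (log2 fold change -0.25, SE 0.10, 95% confidence interval -0.45 to -0.04, unadjusted p = 0.023, adjusted p = 0.14, edgeR). Rbm3 was higher in all 3 (log2 fold change 0.17, SE 0.10, 95% confidence interval -0.05 to 0.38, adjusted p = 0.30, edgeR). The exact permutation p was 0.1 for each gene, the smallest possible, yet 25.3% of all 22276 genes did not overlap between these groups, so separation was common here. At an adjusted p under 0.05, 8 genes passed (0.0359%). Without WT homecage replicate 3 the value for Cirbp was -0.32 with an adjusted p of 0.014 (edgeR), in a range of 0.014 to 0.49 over 15 alternatives. The number of all genes that passed without that library is not given here. With GC normalization Cirbp was at -0.08 and Rbm3 at -0.06.

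Cirbp varied more among replicates of RNA-Seq 2 than most genes of its level. Its SD within groups was 0.21 on the log2 scale, at the 96.4th percentile of 2382 genes of similar level, whose median SD was 0.08. Rbm3 had an SD of 0.11, at the 76.0th percentile. In RNA-Seq 1 the SD was 0.11 for Cirbp and 0.12 for Rbm3, at the 39.1st and 44.9th percentiles. Replicate 3 had the lowest Cirbp level in all 4 groups of RNA-Seq 2, at 55.6, 63.1, 60.4 and 56.2 CPM. Replicates 3 and 4 are the shallow libraries. Replicates 4 held the highest Cirbp levels of both CFC groups, 78.0 and 75.2 CPM. In the CBP KIX/KIX homecage group replicate 4 was at 63.1 CPM, below replicates 1 and 2 at 81.7 and 72.0 CPM. The GC tilt of replicates 3 ran from -0.10 to -0.06 and that of replicates 4 from -0.20 to -0.08. What sets replicate 3 apart was not tested.

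Within groups, the relation of Cirbp and Rbm3 did not pass the test after adjustment in either experiment. Deviations from the group means had a Pearson r of 0.60 (2-sided exact permutation p = 0.055, adjusted p = 0.11) and a Spearman rho of 0.64 (exact permutation p = 0.028, adjusted p = 0.056) over the 15 libraries of RNA-Seq 2. Without the 2 libraries farthest from the median of Cirbp, r was 0.44. Over the 9 libraries of RNA-Seq 1, r was 0.09 (exact permutation p = 0.75, adjusted p = 0.75) and rho was 0.02 (exact permutation p = 0.98, adjusted p = 0.98).

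The genes with the pattern most like that of Cirbp did not include its paralog. Each experiment was centred on its own mean, and correlations were taken over the 24 libraries among 10838 genes with at least 5 CPM on average in both experiments. They are descriptions, since the points share libraries, depth and base composition. The highest r with Cirbp was that of Mpst (0.82), a mitochondrial and cytosolic sulfurtransferase, followed by Sugp1 (0.82), a splicing factor, Fam219b (0.81), Sdr39u1 (0.79) and Bcl7c (0.78), a subunit of SWI/SNF chromatin remodelers. Rbm3 stood at rank 4269 from the top with an r of 0.21, which was -0.39 in RNA-Seq 1 and 0.46 in RNA-Seq 2.

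The gene whose pattern was most opposite to that of Cirbp was a heat-shock gene. Chordc1, a heat-inducible cochaperone of HSP90, had the lowest r of all 10838 genes (-0.81), at -0.95 within RNA-Seq 1 and -0.80 within RNA-Seq 2, followed by the autophagy gene Atg12 (-0.79). Of 20 heat-shock genes in this set, 18 had a negative r with Cirbp (median -0.23), against 44.5% of 10830 genes with a median of 0.07. Other lists were as far below 0, with 11 of 11 immediate-early genes (median -0.34), 5 of 5 choroid plexus markers (median -0.24) and 5 of 6 astrocyte markers (median -0.28) at a negative r with Cirbp, and in RNA-Seq 1 alone the choroid plexus markers had a median of -0.79. The constitutive chaperone gene Hspa8 had an r of -0.60, Hspa4 -0.70, Dnaja1 -0.62 and Hsp90aa1 -0.59. The most heat-inducible genes had an r of -0.02 (Hspa1a) and -0.18 (Hspa1b), the latter close to the list median of -0.23. In their longest annotated transcripts, Chordc1 is 35.7% and Mpst 58.4% G and C. The r with the GC tilt was -0.87 for Chordc1 and 0.61 for Cirbp. After GC normalization, which was added once this was seen, 17 of 20 heat-shock genes had a negative r with Cirbp (median -0.27), Chordc1 was at -0.70 and ranked 5 from the lowest, and Mpst had an r of 0.59, at rank 58 from the top.

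**Figure D4:**
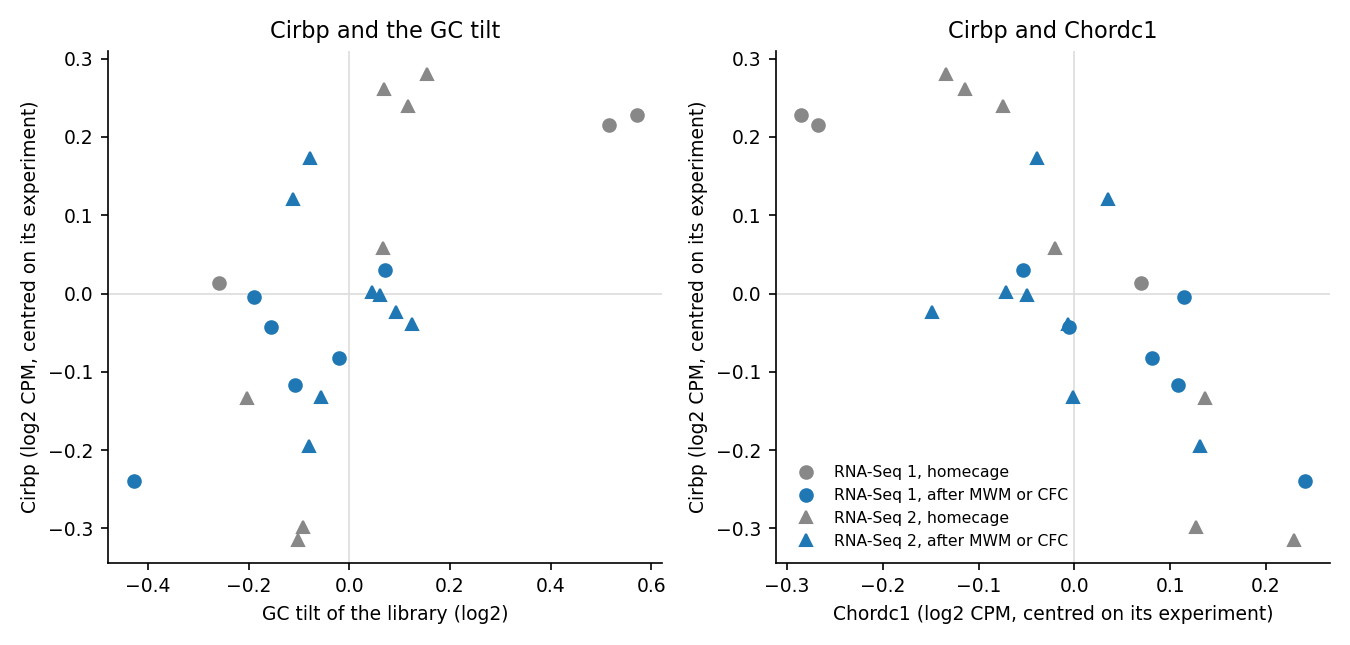
Cirbp in each of the 24 libraries (log2 CPM, centred on its experiment) against the GC tilt of the library (left) and against the heat-shock gene Chordc1 (right). Circles are RNA-Seq 1 and triangles RNA-Seq 2, grey for homecage and blue for trained mice of either genotype. Libraries with a higher tilt have more Cirbp (r = 0.61), and libraries with more Chordc1 have less (r = -0.81).

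Rbm3 followed other genes. Its highest r was that of Ddit4 (0.76), a stress-induced inhibitor of mTORC1, followed by Naaa (0.75), Elmod1 (0.74), Tmem14a (0.72) and Fam13a (0.72), and its lowest were those of Galnt14 (-0.77) and Ndc1 (-0.76), a nuclear pore protein gene. Ddit4 measured 44.4 ± 2.32 CPM in WT homecage mice (SD, n = 3) and 52.2 ± 2.03 CPM after CFC (n = 4). In CBP KIX/KIX mice it measured 37.2 ± 5.63 CPM in the homecage and 49.6 ± 2.93 CPM after CFC (n = 4 each, log2 fold change 0.41, adjusted p = 0.093, edgeR). The r of Rbm3 with the GC tilt was 0.01 over all libraries. After GC normalization Elmod1 and Tmem14a had an r of 0.77 each, and Ddit4 had an r of 0.48, at rank 889 from the top. A negative r with Rbm3 was also held by 12 of 20 heat-shock genes as counted (median -0.06) and 14 after GC normalization (median -0.31). As counted, it was held by 6 of 20 in RNA-Seq 1 alone (median 0.24) and 16 of 20 in RNA-Seq 2 alone (median -0.42). After GC normalization it was held by 13 of 20 in RNA-Seq 1 alone (median -0.19) and 14 of 20 in RNA-Seq 2 alone (median -0.39). Of 18 clock genes 14 had a positive r with Rbm3 (median 0.33), and 10 of 11 immediate-early genes did so (median 0.36), against 5819 of 10830 genes in all (median 0.03). The experiments differed for the clock genes as counted. A positive r was held by 7 of 18 in RNA-Seq 1 (median -0.13) and 15 of 18 in RNA-Seq 2 (median 0.51). After GC normalization it was held by 14 of 18 in RNA-Seq 1 (median 0.24) and 15 of 18 in RNA-Seq 2 (median 0.50). The difference between experiments thus depended on the treatment of base composition, and it was not tested.

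Genes related to Cirbp and Rbm3 did not pass the test after either task in WT mice. Of 20 tested glycine-rich relatives, such as Hnrnpa1, none passed after MWM (median log2 fold change -0.07, equal to the -0.07 of all genes) or after CFC (median -0.02, all genes -0.0058), and the lowest p after MWM was that of Rbm4b (-0.27, adjusted p = 0.46, edgeR). Of 12 genes linked to either protein, such as Rtn3 and Ntrk2, which are known to act with RBM3 at synapses, none passed. Trpv4, a heat-gated channel also expressed in the choroid plexus, had the largest value of that list after CFC, 1.11 with an SE of 0.82 (adjusted p = 1.0, edgeR), beside the uneven choroid plexus marker sums given above. Of 22 genes of temperature-sensitive splicing, kinases of the CLK family and their SR protein substrates, none passed, and Clk3 had the lowest p after MWM (-0.29, adjusted p = 0.31, edgeR). In the joint comparison of learning, Clk1 of that list passed (log2 fold change 0.16, SE 0.03, adjusted p = 0.041, edgeR).

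Most heat-shock genes had values above 0 after the water task and below 0 after fear conditioning, but none of 21 passed in either comparison and the difference between tasks passed for none. After MWM 17 were above 0, with a median of 0.12 against -0.07 for all genes, while after CFC 7 were above 0, with a median of -0.01 against -0.0058. With GC normalization 18 were above 0 after MWM (median 0.08, all genes -0.06) and 5 after CFC. The largest evidence after MWM was that of Dnajb1, an HSP40 cochaperone gene (log2 fold change 0.31, SE 0.09, adjusted p = 0.31, edgeR). It was 0.14 after CFC (SE 0.07, adjusted p = 1.0) and passed in the joint comparison (0.23, SE 0.04, adjusted p = 0.015, edgeR). Dnajb1 measured 37.4 to 42.3 CPM in CBP KIX/KIX mice after MWM, against 40.8 to 41.8 CPM in WT homecage mice. In that comparison 14 of the 21 heat-shock genes were above 0 and 7 below (median 0.13, all genes -0.10). Hspa8 had the lowest p of the list for the difference between tasks (0.32, SE 0.13, adjusted p = 0.64, edgeR). Clock genes showed no passing member among 18 in either task comparison, with Per2 highest in evidence after MWM (0.37, SE 0.12, adjusted p = 0.32, edgeR), and Per1 passed in the joint comparison (0.44, SE 0.04, adjusted p = 0.00031). Of 12 immediate-early genes, Fos (1.14, adjusted p = 0.0125) and Egr2 (2.21, adjusted p = 0.023) passed upward after MWM (edgeR). None passed after CFC in the fit of all RNA-Seq 2 groups, where Dusp1 had the lowest p (1.07, adjusted p = 1.0). Their values were nonetheless larger after CFC, with 12 of 12 above 0 (median 1.19), than after MWM, with 11 of 12 above 0 (median 0.51).

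**Figure D5:**
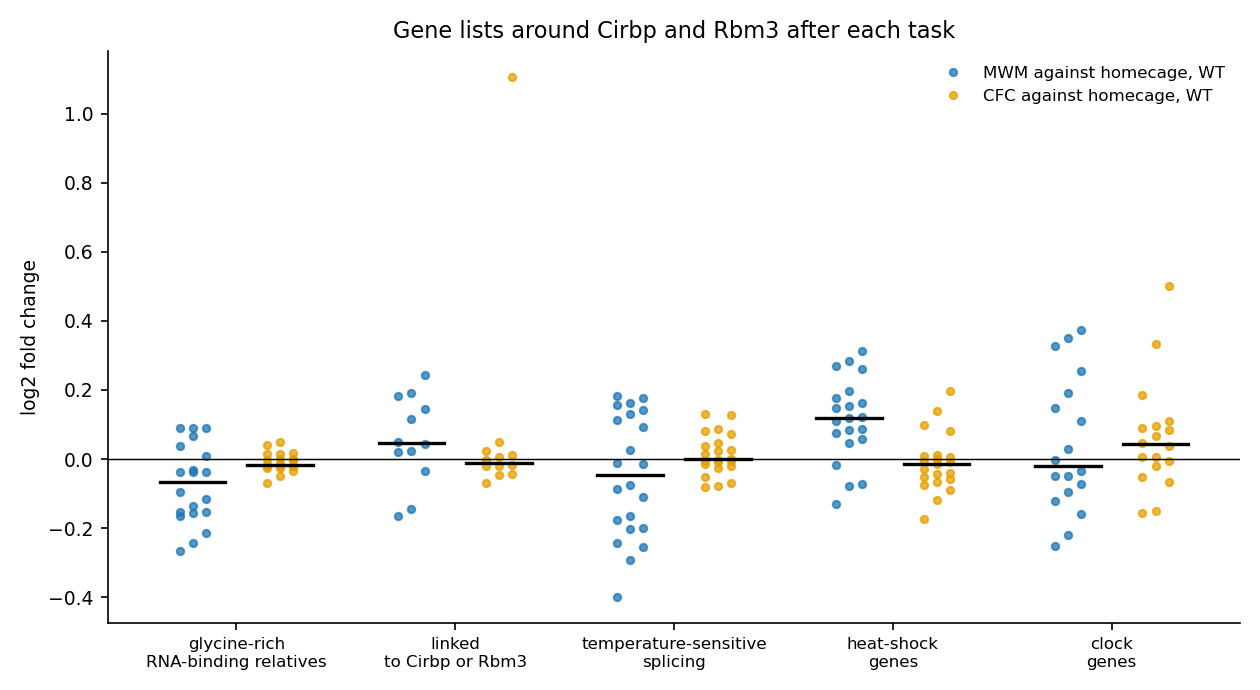
Log2 fold change of each gene of 5 lists after MWM (blue) and after CFC (orange) in WT mice, with the list median as a black bar. The heat-shock genes have a median of 0.12 after MWM and -0.01 after CFC, and no gene of these lists passed adjustment.

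Markers of endothelial cells were lower on average after MWM than in homecage mice, and none passed the test. All 6 endothelial markers were below 0 after MWM in WT mice (5 of 6 with TMM), with Cldn5, a tight-junction gene, at -0.79 (SE 0.16, adjusted p = 0.18, edgeR). Their summed level was 152 to 171 CPM in homecage, 111 to 134 CPM in WT MWM and 99.5 to 123 CPM in CBP KIX/KIX MWM libraries. Neither MWM group thus overlapped the homecage group, where 13.4% of single genes did not overlap for WT and 25.3% for CBP KIX/KIX mice. After CFC in WT mice 5 of 6 endothelial markers were also below 0 (median -0.10), with Cldn5 at -0.20 (SE 0.10, unadjusted p = 0.051, edgeR). There the sums overlapped, at 189 to 239 CPM in homecage and 186 to 209 CPM in CFC libraries. The sums of microglia markers overlapped between the WT groups of RNA-Seq 1 (241 to 277 and 237 to 278 CPM), and those of CBP KIX/KIX MWM libraries (228 to 237 CPM) lay below the homecage group. Oligodendrocyte markers were all below 0 after MWM (median -0.16, 5 of 6 with GC normalization) and all above 0 after CFC (median 0.15), with overlapping sums. Their part in the values of Cirbp and Rbm3 was not tested. In such tissue samples a smaller share of a cell type and less RNA per cell cannot be told apart.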

How the data were processed

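Total RNA (RNA-Seq 1) or polyA RNA (RNA-Seq 2) of dorsal hippocampus was sequenced as paired ends. The deposited values are raw counts per gene, which the authors made on mm10 (GRCm38) with STAR, SAMtools 1.6 and featureCounts 1.4.4, per the labels, in the bcbio-nextgen pipeline, per the study's methods; annotation release and strand setting were not given in the sources used here. Of 51826 gene identifiers, 51633 were found in GENCODE M21, which supplied symbols, positions and exons. Promoters came from RefSeq.

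Genes were kept by filterByExpr and scaled to the upper quartile, and edgeR 4.0.16 (R 4.3.3) quasi-likelihood tests were run on the counts, with 1 fit per experiment (22276 and 18851 genes) and 1 fit of the 13 WT libraries for the task difference. The joint fits had an experiment term and 3 (learning) or 4 (genotype) factors from residuals (RUVr, re-implemented). In each fit 1 comparison was tested on simulated counts. These held no batch or hidden factor, so they could not test what the factors remove. P-values were adjusted by Benjamini-Hochberg over all genes tested, with a threshold of 0.05. Log2 CPM used a prior count of 2. Within-group correlations were tested by enumerating all permutations within groups (216 and 82944) in place of random draws. The alternatives, listed in the closing section, were TMM, DESeq2 1.42.0, no filter, a replicate block, GC normalization in 10 bins, fewer groups, depth as a term, other factor numbers and leaving out each library. The block without factors and GC normalization of the correlations and of the ratio were added after seeing the data.

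Genes with a like pattern were the 5 with the highest and 2 with the lowest correlation, and from each list those that passed or had the lowest p were named. Members and lists were chosen with earlier results of these data known, and a few further genes were named after their values were seen. The labels do not say which samples share a litter or day. Same-numbered libraries deviated together in MWM against homecage (r 0.11 to 0.18) and in CFC against homecage in WT (0.23 to 0.50) and CBP KIX/KIX mice (0.18 to 0.37), so the numbers were read as pairs there, a hint from the data. P-values measure the spread between mice, of which each library is taken as 1. All pairs of replicates differed by more than sampling noise.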

Additional observations from a re-analysis of the deposited data

How the results depend on the processing

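Over 430 alternatives for the 22 values of Cirbp and Rbm3, 398 kept direction and side of the threshold, 29 turned in sign, and 3 crossed the threshold. All 3 were values of Cirbp with 1 library left out. Without WT homecage replicate 3 of RNA-Seq 1, MWM against homecage was -0.28 and CBP KIX/KIX MWM against WT homecage -0.32. Without WT homecage replicate 3 of RNA-Seq 2, the joint learning value was -0.23. The numbers of all genes that passed in these settings are not given, so the crossings cannot be read as particular to Cirbp. GC normalization turned Rbm3 after MWM to -0.0023, Cirbp and Rbm3 in CBP KIX/KIX against WT after MWM to 0.065 and -0.053, Rbm3 in CBP KIX/KIX MWM against WT homecage to -0.056, and Cirbp in the joint genotype comparison to 0.011. For Rbm3 the difference between tasks was 0.0069 with TMM, 0.012 without a filter, 0.025 with DESeq2 and 0.0077 with the replicate block. The correlation of Cirbp and Rbm3 in RNA-Seq 1 was -0.012 with TMM. The causes were not tested.

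With each library left out in turn, the log2 fold change of Cirbp ran from -0.28 to -0.17 for MWM against homecage, from -0.084 to 0.030 for genotype after MWM, from -0.32 to -0.18 for CBP KIX/KIX MWM against WT homecage, from -0.27 to -0.0049 for CFC in WT mice, from -0.080 to 0.024 for genotype after CFC, from -0.28 to -0.024 for genotype in the homecage, from -0.094 to 0.083 for CFC in CBP KIX/KIX mice, from -0.0079 to 0.25 for the genotype difference of the CFC response, from -0.21 to 0.050 for the task difference, from -0.23 to -0.11 for joint learning, from -0.057 to -0.0052 for joint genotype. With each library left out in turn, the log2 fold change of Rbm3 ran from 0.0042 to 0.19 for MWM against homecage, from -0.022 to 0.16 for genotype after MWM, from 0.13 to 0.21 for CBP KIX/KIX MWM against WT homecage, from 0.089 to 0.20 for CFC in WT mice, from -0.13 to -0.045 for genotype after CFC, from -0.13 to -0.016 for genotype in the homecage, from 0.066 to 0.18 for CFC in CBP KIX/KIX mice, from -0.078 to 0.038 for the genotype difference of the CFC response, from -0.14 to 0.043 for the task difference, from 0.083 to 0.16 for joint learning, from -0.062 to 0.0065 for joint genotype.

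With the replicate block, Cirbp and Rbm3 after MWM were -0.21 and 0.10, after CFC in WT mice -0.11 and 0.15, and after CFC in CBP KIX/KIX mice -0.0054 and 0.13; the joint learning values were -0.18 and 0.096. The block changed no call of either gene. Where the numbers did not pair libraries, as in the genotype comparisons after MWM and CFC, the correlations of same-numbered libraries ran from -0.16 to -0.0068 and from -0.12 to 0.52.

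The number of genes called in all depended on the setting, libraries left out aside: 1 to 131 (3 as reported) for MWM, 0 to 21 (0) for CFC in WT mice, 0 to 301 (0) for CFC in CBP KIX/KIX mice, 1 to 29 (3) for the task difference, 9 to 992 (154) for joint learning, 4 to 2883 (518) for joint genotype, 0 to 7 (0) and 1 to 4 (2) for genotype after MWM and CFC, 2 to 58 (5) for genotype in the homecage, 1 to 2002 (8) for CBP KIX/KIX MWM against WT homecage, and 0 to 1 (0) for the genotype difference of the CFC response. Every library held at least 859 counts of each gene.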
